A study of Mus musculus with 7 samples.

Results

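The genes described here control the G1 phase of the cell cycle: the 3 D-type cyclins Ccnd1, Ccnd2 and Ccnd3, their kinases Cdk4 and Cdk6, the kinase inhibitors Cdkn1a, Cdkn1b and Cdkn2c, the retinoblastoma gene Rb1 and the transcription factor E2f1. They were taken by symbol, and all 10 were found among the 24421 gene symbols of each count file. All 10 also passed the filter on low counts, which left 16905 genes for testing. RNA of whole cerebellum from C57BL/6 mice was sequenced in 7 libraries, and the comparison asks which transcripts differ when Cic, a transcriptional repressor that binds ATXN1, is deleted. The 4 knockout libraries, titled CicKO, carry En1-Cre and 2 floxed Cic alleles (En1-Cre; Cicflox/flox). The 3 control libraries, titled Wildtype, carry 1 floxed and 1 wild-type Cic allele (Cicflox/+) and no Cre is named for them, so Cre and loss of Cic cannot be told apart. En1-Cre acts in cells with a history of En1 expression, which include the embryonic precursors of the cerebellum. Age, sex and litter are not in the labels, nor is it said whether each library came from its own animal, so the p-values measure only the spread between these libraries, which may be technical.

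Mitogens raise the level of D cyclins, which bind CDK4 or CDK6. The active kinase phosphorylates the retinoblastoma protein, which then releases E2F factors, and these switch on genes for DNA replication. INK4 proteins such as the product of Cdkn2c bind the kinases directly, whereas the products of Cdkn1a and Cdkn1b bind cyclin and kinase complexes. In the developing cerebellum D cyclins drive the division of granule neuron progenitors, and most neurons of the mature cerebellum no longer divide. Ccnd1 is a textbook target of receptor kinase and ERK signalling and has been listed among the genes that CIC represses.

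Depth was similar across the libraries, with 102653765 to 121285349 gene counts each, so that 3 counts correspond to 0.0245 to 0.0295 CPM (counts relative to a TMM-scaled library size). Cic, the deleted gene, fell: the 4 knockouts had 144 to 147 CPM and the 3 controls 216 to 257 (-0.66 on the log2 scale, SE 0.0622, adjusted p = 0.00256). The cerebellar label was checked on markers: the granule neuron gene Gabra6 averaged 679 ± 67.7 CPM in knockouts and 755 ± 76.3 in controls, and all 7 listed Purkinje cell markers were detected. Knockout 3 and control 3 stand apart: the 8 choroid plexus markers summed to as much as 8488 CPM in knockout 3 and 6141 CPM in control 3, but to as little as 44.7 and 76.3 CPM in the other libraries of these groups. The calls for Ccnd1, Cdkn2c, E2f1, its neighbours and the CIC targets, and the likeness to Ccnd1, are also given without them. In bulk tissue, fewer cells of a type and less RNA per cell cannot be told apart.

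Of the 10 genes, E2f1 and Cdkn2c rose in the knockouts and none fell. E2f1 rose 2.16-fold and Cdkn2c 1.87-fold. Ccnd1 had the largest fold difference of the 10, at 2.29-fold, but did not pass the threshold. Ccnd2, Ccnd3, Cdk4, Cdk6, Cdkn1a, Cdkn1b and Rb1 were not called. The median log2 fold change of the 10 genes was 0.09, against 0.00 over all genes tested. The test was edgeR's quasi-likelihood F test with Benjamini-Hochberg adjustment over all 16905 genes, with a threshold of 0.05 on the adjusted p. By this rule 1.25% of all genes tested were called higher and 0.828% lower, 2.08% together. DESeq2 called 3 of the 10 genes, all higher, where it called 3.95% of all genes higher, and limma-voom called 2, both higher, where it called 1.18% higher. The share of all genes called shifted with the libraries used: it was 0.511, 0.927, 5.03 and 0.636% without knockout 1, 2, 3 or 4, and 0.595, 3.36 and 0.598% without control 1, 2 or 3. It was 2.38% without both libraries numbered 3.

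**Figure D1:**
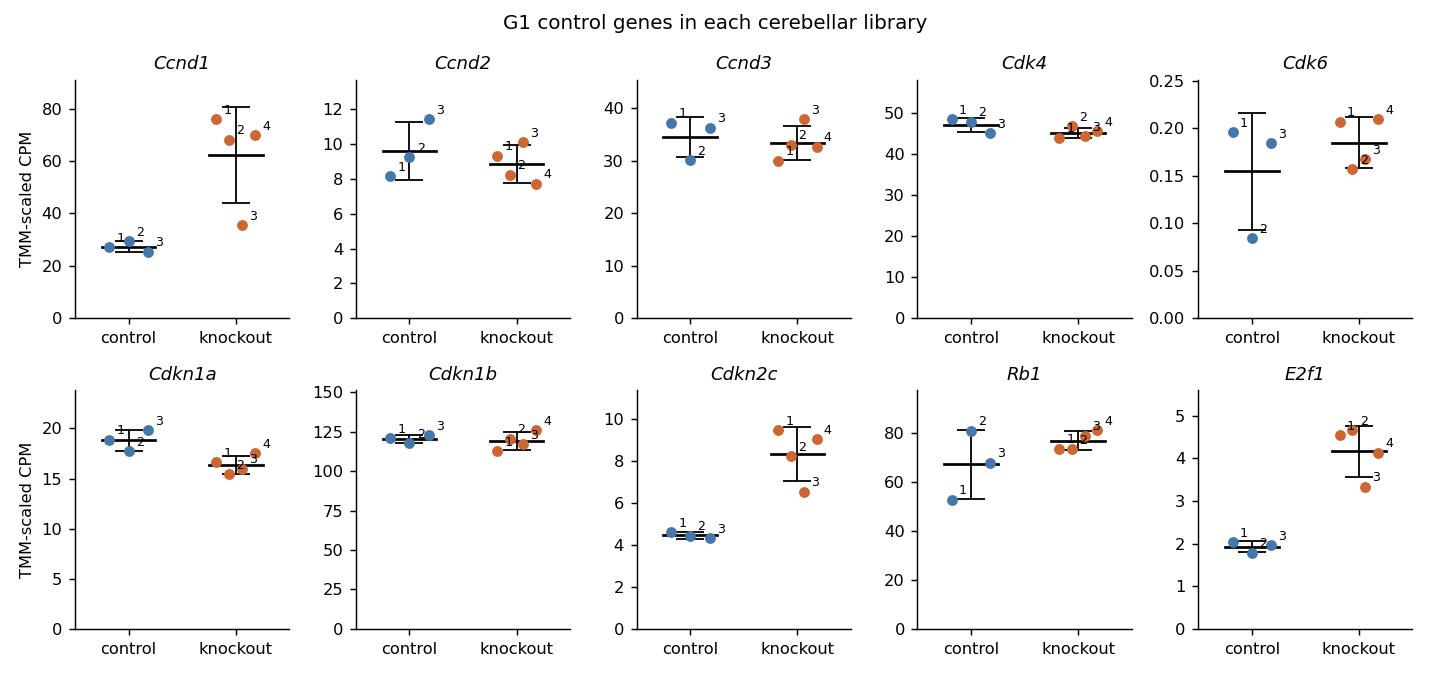
TMM-scaled CPM (vertical axis, from 0) of the 10 G1 control genes in the 3 control and 4 knockout libraries; each point is a library with its replicate number, and the bars give the mean and SD. The knockout points of Ccnd1, Cdkn2c and E2f1 lie above all control points, and knockout 3 is the lowest knockout in each of them.

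The D cyclins are the regulatory subunits that couple growth signals to the kinases. Ccnd1, which encodes cyclin D1, was at 75.8, 68.2, 35.5 and 69.7 CPM in knockouts 1 to 4 and at 27.0, 29.4 and 25.3 CPM in controls 1 to 3. The groups do not overlap, but knockout 3 lies much nearer to the controls than to the other 3 knockouts. The means were 62.3 ± 18.2 and 27.3 ± 2.08 CPM (SD, n = 4 and 3), so that Ccnd1 differed by 1.19 on the log2 scale (SE 0.254, 95% interval 0.59 to 1.80, adjusted p = 0.0738). Without knockout 3 the log2 fold change was 1.39 and passed (adjusted p = 9.09e-05), as it did at 1.33 without both libraries numbered 3 (adjusted p = 0.000402). Over all alternatives it lay between 1.06 and 1.39, with adjusted p from 9.09e-05 to 0.414. Ccnd1 was called in 5 of these 18 alternatives and not in 13. It was not called by limma-voom (adjusted p = 0.114). Nor was it called when any single library other than knockout 3 was left out (adjusted p = 0.111 to 0.246). DESeq2 called Ccnd1 higher with all 7 libraries (adjusted p = 0.00104). The gene lies on chromosome 7 at 144929931 to 144939925 (minus strand, GRCm38, GENCODE M21), and 1100 bp of its exons overlap those of Oraov1 on the other strand. Oraov1 had 18.5 ± 1.52 CPM in knockouts and 18.4 ± 2.51 in controls (log2 fold change 0.00, adjusted p = 0.993). The strand setting of the counting is not known, so reads in the shared stretch may count for either gene.

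Its paralogs showed no difference of that size. Ccnd2 (chromosome 6, 127125162 to 127152193, GRCm38 as for all genes here), which encodes cyclin D2, was at 9.32, 8.24, 10.1 and 7.71 CPM in knockouts 1 to 4 and at 8.16, 9.25 and 11.4 CPM in the controls. These ranges overlap, and the log2 fold change of -0.12 has a 95% interval of -0.44 to 0.20 (adjusted p = 0.724). Ccnd3 (chromosome 17, 47505051 to 47599691), which encodes cyclin D3, was at 29.998, 33.1, 37.8 and 32.7 CPM in knockout and at 37.2, 30.1 and 36.3 CPM in control libraries. These overlap as well (log2 fold change -0.05, 95% interval -0.27 to 0.18, adjusted p = 0.856). Its end overlaps 361 bp of Bysl on the other strand, which averaged 14.6 ± 0.301 CPM in knockouts and 17.5 ± 0.669 in controls (adjusted p = 0.068). Both intervals lie below the whole interval of Ccnd1, which runs from 0.59 to 1.80.

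A ratio of paralogs within a library does not depend on how libraries are scaled. The log2 ratio of Ccnd1 to Ccnd2 counts was 3.02, 3.05, 1.81 and 3.18 in the knockouts and 1.73, 1.67 and 1.15 in the controls. It was higher in all 4 knockouts than in any control, with means of 2.77 ± 0.638 and 1.52 ± 0.319 (difference 1.25, two-sided exact permutation p = 0.0571, or 0.0857 adjusted over the 2 ratios). The log2 ratio of Ccnd1 to Ccnd3 was 1.34, 1.04, -0.09 and 1.09 in the knockouts and -0.46, -0.03 and -0.52 in the controls. Here knockout 3 lies below control 2 (difference 1.18, exact permutation p = 0.0857, also 0.0857 adjusted). Neither ratio passed, and 0.0286 is the smallest p that the 35 splits into 4 and 3 libraries can give.

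Counts divided by exon length put genes on a common scale, which depends on the length taken for each gene. Here it was that of all annotated exons joined: 4709 bp for Ccnd1, 9409 bp for Ccnd2 and 8775 bp for Ccnd3. Where a D cyclin uses only part of this length its level is understated, so the order and shares below hold for these lengths only. On this scale Ccnd1 was the most abundant D cyclin in every library, also in the controls and knockout 3, where Ccnd3 has more counts. Its share of the summed D cyclin level in CPM per kb of exon was 52.9, 58.6 and 50.1% in controls 1 to 3 and 78.5, 75.7, 58.3 and 76.5% in knockouts 1 to 4. Knockout 3 falls just under control 2. The summed D cyclin level was 10.7 ± 0.0993 CPM per kb in the controls, and 20.5, 19.1, 12.9 and 19.3 CPM per kb in the knockouts. On this scale every knockout library had a higher sum than any control. These sums are descriptions without a test, and at these exon lengths Ccnd1 makes up most of each.

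**Figure D2:**
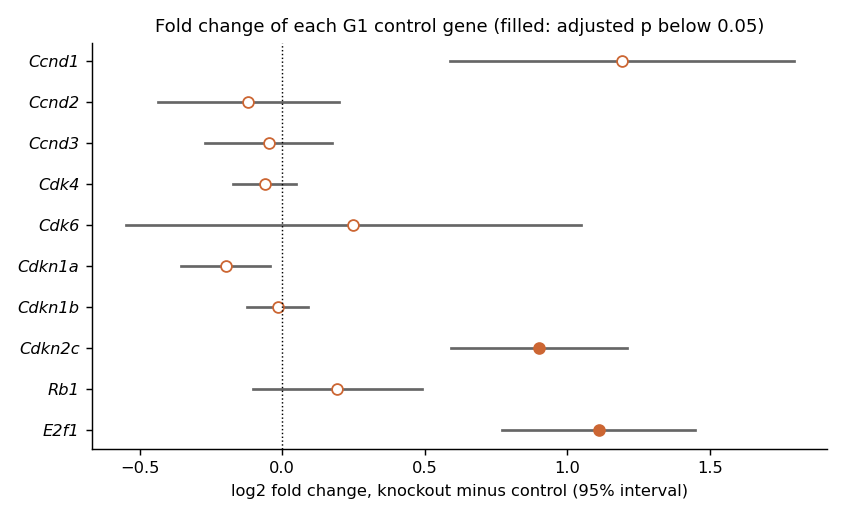
Log2 fold change of each G1 control gene, knockout minus control (horizontal axis), with its 95% interval; filled points have an adjusted p below 0.05. Ccnd1 (1.19), E2f1 (1.11) and Cdkn2c (0.90) lie to the right of the other 7 genes, and the interval of Cdk6 is the widest.

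Neither kinase was called, and Cdk6 was scarce. Cdk4 (chromosome 10, 127063534 to 127067920) was at 43.9, 46.7, 44.3 and 45.4 CPM in knockout and at 48.4, 47.8 and 45.0 CPM in control libraries. The groups overlap, and the 95% interval of the log2 fold change of -0.06 runs from -0.17 to 0.05 (adjusted p = 0.579). An exonic stretch of 641 bp overlaps Tspan31 on the other strand, which averaged 68.2 ± 2.43 CPM in knockouts and 68.5 ± 2.10 in controls. Cdk6 (chromosome 5, 3341485 to 3531008), the other partner of D cyclins, had only 21, 16, 19 and 22 counts in the knockouts and 24, 9 and 21 in the controls, or 0.157 to 0.209 and 0.0841 to 0.196 CPM. With so few counts the 95% interval of its log2 fold change (0.25) runs from -0.55 to 1.05, which takes in no change as well as a 2-fold difference, so these could not be told apart at this depth.

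The inhibitor Cdkn2c rose. It encodes an INK4 protein that keeps CDK4 and CDK6 from binding D cyclins. It was at 9.45, 8.23, 6.53 and 9.01 CPM in knockouts 1 to 4 and at 4.60, 4.43 and 4.30 CPM in the controls. The groups do not overlap, the controls differ little among themselves, and knockout 3 is again the lowest knockout. The means were 8.31 ± 1.29 and 4.44 ± 0.150 CPM (difference of 0.90 on the log2 scale, SE 0.135, adjusted p = 0.0180). The call was lost without knockout 1, 2 or 4 (adjusted p = 0.0572, 0.0510 and 0.0673) or without control 1 or 3 (0.0730 and 0.0924), while the log2 fold change stayed between 0.83 and 1.00 over all alternatives. Without both libraries numbered 3 Cdkn2c was called (0.98, adjusted p = 0.00872), and over all alternatives its adjusted p was 3.24e-08 (DESeq2) to 0.150.

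Cdkn2c lies on chromosome 4 at 109660876 to 109667189 (minus strand, GRCm38, GENCODE M21). It has 2 starts in the RefSeq table, and the stretch before the inner one is shown because Cdkn2c is the only gene among E2f1, Cdkn2c and Ccnd1 with a window that is mostly outside exons. It covers chr4:109665373-109665609 on the minus strand of GRCm38.p6, as given by RefSeq, and capitals would mark a match to a motif searched below:
Cdkn2c, before the inner start: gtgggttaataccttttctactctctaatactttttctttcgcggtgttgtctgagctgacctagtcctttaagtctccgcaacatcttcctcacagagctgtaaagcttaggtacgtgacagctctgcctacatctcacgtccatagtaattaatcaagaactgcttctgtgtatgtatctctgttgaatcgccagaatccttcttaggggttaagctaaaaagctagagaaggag
RefSeq windows of 250 bp before a start were at hand for 7 of the 10 genes, 10 windows in all, and not for Ccnd1, Ccnd2 and Rb1. The octamers TGAATGAA, TGAATGGA, TCAATGAA and TCAATGGA, to which CIC is known to bind, occurred on either strand in 0 of the 10 windows and in 3.19% of all 32851 windows. The E2F octamers TTTCCCGC, TTTGGCGC, TTTCGCGC and TTTGCCGC occurred in 0 of the 10 windows and in 1.86% of all. Of the 10 windows 2 lie wholly in exons, including that of E2f1. These counts say only which letters are in these windows.

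The other inhibitors were not called. Cdkn1a (chromosome 17, 29090976 to 29100727), which encodes p21 and is a main target of p53, was at 16.7, 15.4, 16.0 and 17.5 CPM in knockout and at 18.9, 17.8 and 19.8 CPM in control libraries. The groups do not overlap, with the knockouts lower, but the difference is small (log2 fold change -0.20, SE 0.0685, unadjusted p = 0.0189, adjusted p = 0.203). Cdkn1b (chromosome 6, 134920401 to 134925513), which encodes the p27 protein that holds differentiated cells out of the cycle, was at 113, 120, 117 and 126 CPM in knockout and at 121, 118 and 123 CPM in control libraries. These overlap, with a log2 fold change of -0.02 (95% interval -0.12 to 0.09, adjusted p = 0.903).

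Rb1 and E2f1 are the substrate and the effector of the pathway. Rb1 (chromosome 14, 73183673 to 73325822) was at 73.6, 73.5, 78.9 and 81.2 CPM in knockout and at 52.8, 81.0 and 67.9 CPM in control libraries. It varied more among the controls than among the knockouts and was not called (log2 fold change 0.19, 95% interval -0.10 to 0.49, adjusted p = 0.513). Its low control, control 1, also had the smallest share of entries outside annotated genes, 16.0%, against 18.6 and 16.5% in controls 2 and 3 and 18.2 to 19.0% in the knockouts. With that share as a covariate the log2 fold change of Rb1 was -0.11 (adjusted p = 0.805).

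E2f1, the E2F factor that is itself induced as cells enter the cycle, rose from low levels. It was at 4.54, 4.66, 3.33 and 4.14 CPM in knockouts 1 to 4 and at 2.04, 1.78 and 1.96 CPM in the controls. All knockouts lie above all controls, with knockout 3 the lowest of them. The means were 4.17 ± 0.600 and 1.93 ± 0.131 CPM (difference of 1.11 on the log2 scale, SE 0.148, adjusted p = 0.0105). Without knockout 1 (adjusted p = 0.0502) or control 3 (0.0619) E2f1 just missed the threshold, and without both libraries numbered 3 it was called (1.22, adjusted p = 0.00976). Over all alternatives its adjusted p was 1.11e-09 (DESeq2) to 0.0747. With the share of entries outside annotated genes as a covariate, which follows the groups apart from control 2, neither E2f1 (1.29, adjusted p = 0.0747) nor Cdkn2c (0.97, adjusted p = 0.150) was called, nor any other of the 10 genes, while 0.343% of all genes were. With a replicate block E2f1 and Cdkn2c were both called, among 3.04% of all genes.

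Neighbours of E2f1 rose as well. E2f1 lies on chromosome 2 at 154559407 to 154569892 on the minus strand (GRCm38, GENCODE M21), and Necab3, a calcium-binding protein gene on the same strand, begins 516 bp after its end. Necab3 was at 106, 99.6, 57.9 and 109 CPM in knockout and at 25.7, 17.2 and 19.6 CPM in control libraries (log2 fold change 2.16, adjusted p = 0.0143), again with knockout 3 lowest among the knockouts. Necab3 missed the threshold without knockout 1 (adjusted p = 0.0586) or control 3 (0.0765) and with the share outside genes as a covariate (0.0863), and was called without both libraries numbered 3 (2.29, adjusted p = 0.00409). Actl10, which lies within Necab3 on the other strand and 6130 bp from E2f1, rose too, from 0.602 ± 0.0984 CPM in control to 3.62 ± 0.912 CPM in knockout libraries (2.58 on the log2 scale, adjusted p = 0.00263). It was called without both libraries numbered 3 (2.65, adjusted p = 0.00128) but not with that share as a covariate (2.52, adjusted p = 0.0643). The gene model 1700003F12Rik, also within Necab3 on the other strand, rose from 0.781 ± 0.158 to 2.93 ± 0.661 CPM (1.91 on the log2 scale, adjusted p = 0.00694). It was likewise called without both libraries numbered 3 (2.05, adjusted p = 0.0100) and not with that share as a covariate (1.78, adjusted p = 0.122). Reads in stretches these genes share with Necab3 may count for either, since the strand setting is not known. On the other side of E2f1 Pxmp4, 15865 bp away, had a log2 fold change of 0.19 (adjusted p = 0.296), and beyond Necab3 the log2 fold change of Cbfa2t2 was 0.14 (adjusted p = 0.198). The count files give no positions of reads within genes, so whether reads of one gene were counted in the other was not tested.

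**Figure D3:**
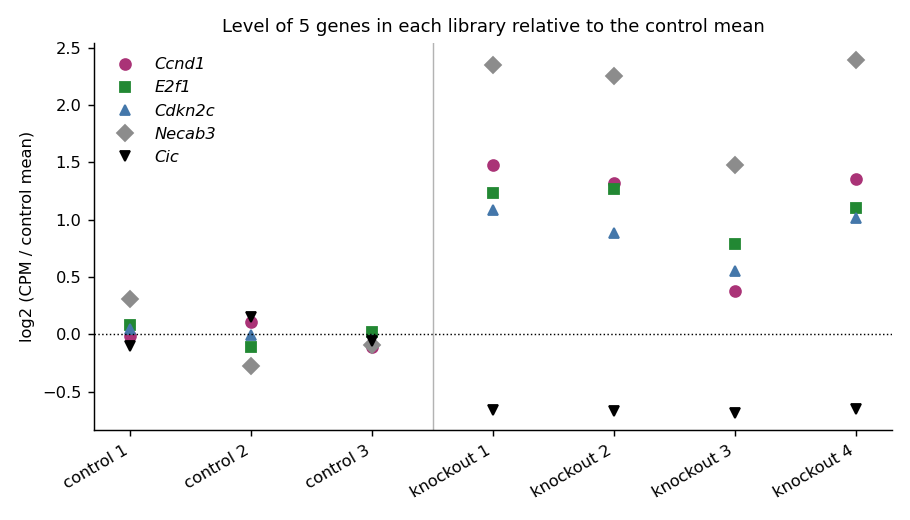
Log2 of the CPM in each library over the control mean (vertical axis) for Ccnd1, E2f1, Cdkn2c, the E2f1 neighbour Necab3 and Cic in the 7 libraries (horizontal axis). In knockout 3 Ccnd1 (0.38), E2f1 (0.79), Cdkn2c (0.56) and Necab3 (1.48) are nearer to the controls than in the other knockouts, whereas Cic (-0.68) is as low as there.

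E2f1, Cdkn2c and Ccnd1 shared 1 pattern over the libraries: knockouts 1, 2 and 4 highest, knockout 3 between, and the controls low. Cic did not follow it, since its log2 level relative to the control mean was -0.66, -0.67, -0.68 and -0.65 in knockouts 1 to 4. A low knockout 3 was not particular to these genes. Its marker sums were also the lowest of the knockouts for granule neurons (4825 CPM, controls 5121 to 5655) and Purkinje cells (7602 CPM, controls 7805 to 9291). The same held for astrocyte and microglia markers. It did not hold for oligodendrocyte, oligodendrocyte precursor, endothelial, choroid plexus, meningeal or monoamine neuron markers. Likeness to Ccnd1 was measured, without regard to group, as the root mean square difference of mean-centred log2 CPM over the 7 libraries among 13156 named genes averaging 1 CPM or more. On this measure E2f1 ranked 14 (0.229) and Cdkn2c 15 (0.230) among the genes other than Ccnd1. Over the 5 libraries not numbered 3 they ranked 8 (0.137) and 23 (0.188). The other members were far off, with differences of 0.596 (Rb1) to 0.765 (Ccnd2). The measure takes in the difference between the groups. Genes with a log2 fold change like that of Ccnd1 therefore come near it and genes with little change do not. The ranks largely restate the fold changes and are no separate evidence of a shared pattern. The 5 genes most like Ccnd1 were Lhpp (0.108), Col19a1 (0.188), Gpr179 (0.195), Nlrp10 (0.199) and Fam198b (0.203). Lhpp, a phosphatase gene, had 90.4, 88.0, 47.3 and 89.4 CPM in the knockouts against 31.6, 32.1 and 27.7 in the controls, and Col19a1, a collagen gene, had 58.9, 59.9, 36.9 and 55.1 against 28.7, 32.2 and 23.9. In both, knockout 3 lies nearest to the controls. Over the 5 libraries not numbered 3 Lhpp ranked 2 and Nlrp10 3, whereas Col19a1, Gpr179 and Fam198b ranked 31, 28 and 39. These genes were chosen for their likeness, so no test is given.

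Group ranges that do not overlap were found for 4 of the 10 genes: Ccnd1, Cdkn2c and E2f1 higher and Cdkn1a lower in the knockouts. Over all genes tested, 7.06% had every knockout above every control and 8.36% the reverse.

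The order of the genes by mean level was the same in both groups, except that Ccnd1 stood before Rb1 and E2f1 before Ccnd2 in the knockouts. In the controls, levels in CPM per kb of exon fell from Cdkn1b (26.4 ± 0.579) over Cdk4 (14.5 ± 0.548), Rb1 (11.2 ± 2.34), Ccnd1 (5.79 ± 0.442), Cdkn1a (5.30 ± 0.293), Ccnd3 (3.93 ± 0.443), Cdkn2c (1.65 ± 0.0557), Ccnd2 (1.02 ± 0.175) and E2f1 (0.612 ± 0.0416) to Cdk6 (0.0111 ± 0.00439). Of the neighbours in that order, Ccnd1 and Cdkn1a have overlapping ranges. In the knockouts Ccnd1 stood at 13.2 ± 3.86 CPM per kb, between Cdk4 and Rb1, with a range that takes in those of both Cdk4 (13.9 ± 0.381) and Rb1 (12.8 ± 0.644). E2f1 (1.32 ± 0.190) stood before Ccnd2 (0.940 ± 0.114) there, with ranges that overlap narrowly, and Cdkn2c (3.09 ± 0.479) reached into the range of Ccnd3 (3.81 ± 0.372). Exon length is that of all annotated exons of a gene joined, which understates genes whose long exons are little used.

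**Figure D4:**
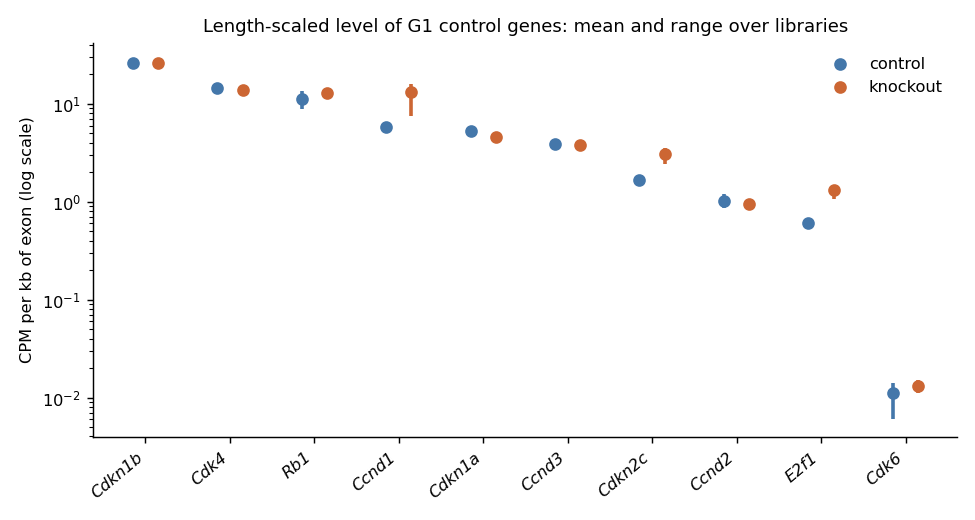
Level of each G1 control gene in CPM per kb of exon (vertical axis, log scale), with points for the mean and bars from the lowest to the highest library, in the control and knockout groups. Genes are ordered by their control mean; Ccnd1 moves from 5.79 to 13.2, Cdkn2c from 1.65 to 3.09 and E2f1 from 0.612 to 1.32 CPM per kb.

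Other genes of the G1 machinery were not called. The 30 listed genes were E cyclins, Cdk2, further inhibitors, pocket proteins, further E2F and DP factors, the CDK-activating kinase and regulators of cyclin D turnover. The list also held Cdc25a, Skp2, Cks1b, Cdc37, Myc and Mycn. Of these 30 genes 28 were tested and 0 were called by edgeR, DESeq2 or limma-voom. At an unadjusted edgeR p below 0.05, 1 was higher and 3 were lower. Their median log2 fold change was -0.06, against 0.00 over all genes. An unadjusted p below 0.05 was common over all genes. Of the 16905 genes tested, 1574 had an edgeR p at or below that of Cdkn1a (unadjusted p = 0.0189). Counts at an unadjusted p below 0.05, here and below, are therefore descriptions and not results about a list. The members with the smallest p were E2f6, a repressive E2F factor (-0.16, adjusted p = 0.201), and Cdkn2b, an INK4 gene like Cdkn2c but with the opposite sign (-0.72, adjusted p = 0.203), at only 0.260 ± 0.0377 CPM in knockout and 0.430 ± 0.0894 CPM in control libraries.

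Genes that E2F factors switch on for DNA replication were not called either. Of 20 such genes, 0 were called by edgeR, DESeq2 or limma-voom, 0 were higher and 2 lower at an unadjusted edgeR p below 0.05, and their median log2 fold change was -0.07. Pcna, the sliding clamp of DNA polymerase, was at 50.2 ± 2.27 CPM in knockout and 55.8 ± 0.972 CPM in control libraries (log2 fold change -0.15, adjusted p = 0.181). Mcm3, a subunit of the replicative helicase, had -0.30 (adjusted p = 0.258). Among 12 genes of G2 and mitosis edgeR called 0, with 0 higher and 1 lower at an unadjusted p below 0.05; limma-voom called 0 and DESeq2 1, lower. The smallest edgeR p was that of Cdc20, an activator of the anaphase-promoting complex, at 2.06 ± 0.421 against 3.45 ± 1.01 CPM (-0.74, adjusted p = 0.155), followed by the centromere histone gene Cenpa (0.35, adjusted p = 0.386).

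Targets of p53 and genes of granule progenitors were also not called by edgeR. Of 14 p53 targets 0 were called, with 1 higher and 2 lower at an unadjusted p below 0.05; limma-voom called 0 and DESeq2 1, higher. The smallest p-values belonged to Trp53inp1 (0.19, adjusted p = 0.118) and Phlda3 (-0.29, adjusted p = 0.273). Of 10 granule progenitor and Hedgehog genes 9 were tested and 0 were called by edgeR, DESeq2 or limma-voom, with 0 higher and 1 lower at an unadjusted edgeR p below 0.05. Gli1, a Hedgehog effector, had -0.38 (adjusted p = 0.184) and Barhl1, a granule lineage factor, 0.43 (adjusted p = 0.538).

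CIC target genes other than Ccnd1 rose in part. Of 17 listed genes 9 were called higher and 0 lower, and their median on the log2 scale was 0.87; DESeq2 called 12 higher and 1 lower. Etv4, Etv5, Maff, Shc3, Dusp4, Dusp6, Spry4, Spred3 and Ptpn9 were called, with folds from 1.42 (Ptpn9) to 8.61 (Etv4). All 9 were also called without both libraries numbered 3, where 10 were called in all. Knockout 3 was the lowest knockout for 7 of these 9 genes as well. The distance was small for Etv5, with 356 CPM in knockout 3 and 379 to 401 in the other knockouts, and larger for Dusp4, with 26.2 against 31.4 to 37.3. For Ccnd1 it was 35.5 against 68.2 to 75.8 CPM.

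**Figure D5:**
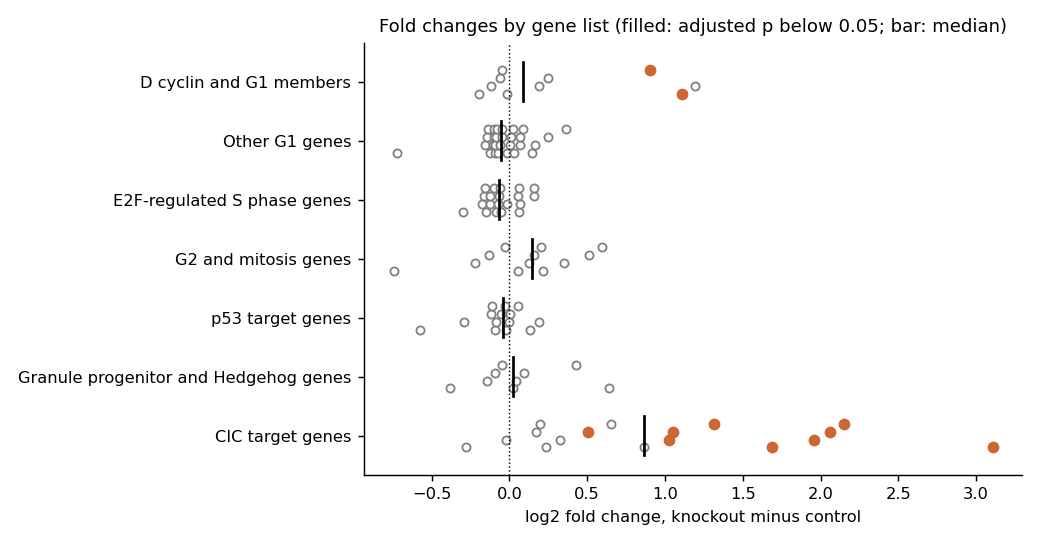
Log2 fold change, knockout minus control (horizontal axis), of each tested gene by list (vertical axis); filled points have an adjusted p below 0.05 and bars are medians. Filled points occur among the G1 members (E2f1 and Cdkn2c) and the CIC targets, and the medians of the other 5 lists lie between -0.07 and 0.14.

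Markers of other cell types that whole cerebellum can hold were read beside Ccnd1. Of 10 microglia markers edgeR, DESeq2 and limma-voom called 0, with 0 at an unadjusted edgeR p below 0.05 and a median log2 fold change of 0.03. Their sum was 175 to 246 CPM in the knockouts, lowest in knockout 3, and 206 to 217 CPM in the controls. With the microglia score as a covariate Ccnd1 was called (log2 fold change 1.11, adjusted p = 0.0134), among 2.81% of all genes. That score was 3.58 in knockout 3, 3.88 to 4.08 in the other knockouts and 3.83 to 3.89 in the controls. It sets apart knockout 3, the knockout with the lowest Ccnd1, so this fit cannot tell microglia from other traits of that library. The 7 oligodendrocyte precursor markers summed to 139 to 170 CPM in knockout and 173 to 187 CPM in control libraries, and Olig1 alone was called, lower. Of these markers 5 had a log2 fold change below 0 and 2 above (median -0.28), with 3 lower at an unadjusted edgeR p below 0.05. The 8 astrocyte and Bergmann glia markers summed to 2242 to 2556 CPM in knockouts and 2915 to 2955 in controls, and 2 of them, Aqp4 and Gdf10, fell. The log2 fold change was below 0 for 7 of the 8 (median -0.22), with 5 lower at an unadjusted edgeR p below 0.05. DESeq2 called 4 of them lower and limma-voom 2. For oligodendrocyte markers the log2 fold change was below 0 in 8 of 8 (median -0.31), with 4 lower at an unadjusted edgeR p below 0.05. Cldn11 fell among them by edgeR, limma-voom called 1 lower and DESeq2 3. Of 4 tested markers of midbrain monoamine neurons Tph2 rose by edgeR, DESeq2 called 1 higher and limma-voom 0. Tph2 was at 1.92 CPM in knockout 3 and at 4.57 to 5.07 CPM in the other knockouts. Th (log2 fold change 0.82, adjusted p = 0.427), Slc6a4 (0.94, adjusted p = 0.499) and Slc18a2 (-0.16, adjusted p = 0.518) were not called. Slc6a4 averaged only 0.108 CPM in knockout and 0.0553 CPM in control libraries. No marker of any list was at 0 in all libraries. The 8 endothelial markers all had positive log2 fold changes (median 0.17) and summed to 159 to 200 and 150 to 168 CPM, with 0 called by edgeR or limma-voom, 2 higher at an unadjusted edgeR p below 0.05 and 1 called higher by DESeq2. Their part in the result was not tested. With the score of choroid plexus markers as a covariate Ccnd1 was called at 1.06 (adjusted p = 0.0107), and so were E2f1 (1.07, adjusted p = 0.00454) and Cdkn2c (0.86, adjusted p = 0.00433), among 4.08% of all genes. The choroid plexus score was 6.73 in knockout 3, 6.15 in control 3 and 0.882 to 1.76 in the other libraries. It sets apart the libraries numbered 3, so this fit cannot tell choroid plexus from other traits of those libraries. Of 7 granule neuron, 7 Purkinje cell, 8 choroid plexus and 6 meningeal markers edgeR, DESeq2 and limma-voom called 0, with 0 at an unadjusted edgeR p below 0.05. The 7 Purkinje cell markers all had positive log2 fold changes (median 0.19).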

How the data were processed

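Each library has 1 deposited file of unnormalized read counts for 24421 gene symbols; its 5 HTSeq summary lines were left out of totals and tests. STAR 2.5.3a, HTSeq and DESeq2 with build mm10 are named in the submitters' processing notes; for the others the version, and for counting the annotation and strand setting, were not given in the sources used here. Per the labels' protocols, cDNA was amplified from poly(A) and random primers, so floors of 3 counts cover counting error only. Entries outside annotated genes made up 16.0 to 19.0%, ambiguous ones 1.27 to 1.37% and those not aligned uniquely 12.0 to 13.7%.

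Counts were tested in R 4.3.3 with edgeR 4.0.16 (filterByExpr, TMM, robust quasi-likelihood F test, genotype as the only term) over all genes, with Benjamini-Hochberg adjustment; all adjusted p-values are edgeR's unless DESeq2 1.42.0 or limma 3.58.1 (voom) is named. SE is the log2 fold change over the square root of F, and 95% intervals use the fit's degrees of freedom and so include the spread between libraries. Scores are mean log2 CPM with a prior count of 2. The fit was tested on simulated data. Exon lengths and coordinates are from GENCODE M21 (GRCm38, called mm10).

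The members, gene lists and tests were chosen with earlier results of these data known. Genes named from each list are all called members, or the 2 with the smallest p, and for likeness to Ccnd1 the 5 nearest genes. Alternatives were other scalings, filters and tools, a replicate block, covariates (choroid plexus and microglia scores, share outside genes) and libraries left out. The alternatives for Necab3, Actl10, 1700003F12Rik, likeness and CIC targets were chosen after seeing the data. Same-numbered libraries correlated at 0.145, 0.288 and 0.713 in their deviations from group means over 16905 genes, all above 0.1; pairs of other numbers reached 0.319, so the check does not single out the numbers.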

Additional observations from a re-analysis of the deposited data

How the results depend on the processing

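Each result was recomputed with other scalings, filters, tools and covariates and with libraries left out. The count of called genes (352) was 1170 with DESeq2, 690 with the choroid plexus score and 58 with the share of entries outside annotated genes as a covariate, and 86 to 842 when a single library was left out (86 without knockout 1, 842 without knockout 3). Of the 10 G1 control genes 2 were called, 0 with that share as a covariate, and 0 to 3 when a single library was left out. The other pathway lists had 9 called genes, all CIC targets, or 15 with DESeq2. The differences in both log2 ratios of Ccnd1 kept their sign in all 10 alternatives each; in designs with libraries left out or paired the exact test could not reach 0.05. The replicate block changed no call among the 10 genes (514 called over all genes; Ccnd1 1.07, adjusted p = 0.142) and gave differences in these ratios of 1.11 and 1.10 over the 3 shared numbers. Signs turned only for genes that were not called: with the share as a covariate for Ccnd3 (log2 fold change 0.093), Cdkn1b (0.000738) and Rb1 (-0.11), and without both libraries numbered 3 for Cdkn1b (0.00523). With single libraries left out the log2 fold change was -0.22 to 0.0226 for Ccnd2, -0.14 to 0.0159 for Ccnd3, -0.0396 to 0.46 for Cdk6 and -0.0443 to 0.00793 for Cdkn1b. The causes were not tested. Cdk6, with 9 to 24 counts, is limited by depth, and had no value under the filter at 1 CPM.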
